A study of Mus musculus with 6 samples.

Results

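The collagen genes of the mouse were followed through 6 arrays of cultured microglia, the resident macrophages of the brain. Every array feature annotated with a single symbol of the form Col, number, a, number was taken, and each of the 42 symbols found in this way had 1 feature, out of 30176 genes with a single symbol. The 42 genes fall into 11 that encode fibrillar chains, 6 that encode the type IV chains of basement membranes, and 25 that encode other collagens (9 fibril-associated, 5 of the beaded filaments of type VI, 3 network-forming, 4 transmembrane, 2 multiplexin and 2 unclassed chains). Features with more than 1 symbol were left out, which removed Col7a1 and Col6a4.

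Microglia were grown from newborn (P0) CD1 pups, with 5 pups pooled into each of 3 cultures, numbered 3, 4 and 6. Each culture gave 1 array after 6 h in a chamber at 1% O2 (hypoxia) and 1 array after 6 h at 21% O2 (normoxia), so n = 3 arrays per condition and each culture served as its own control. The labels name no genetic change and no agent other than oxygen, and call all 6 samples microglia. The deposited values are log2 intensities, and a difference of 1 is a doubling.

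Collagens are trimers whose chains hold glycine at regular intervals and wind into a triple helix. Fibrillar chains such as those of types I, III and V pack into the cable-like fibrils of connective tissue, type IV chains join into the sheet under endothelium and around pericytes, and fibril-associated chains such as type XII decorate fibril surfaces. In brain these genes are typical of fibroblasts, pericytes and other vascular cells, and microglia are not known as a main source. Prolyl 4-hydroxylases, which stabilise the helix, need molecular oxygen.

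The label check came first. Egln3, an oxygen sensor gene that responds to low oxygen, had log2 intensities of 10.79, 11.45 and 10.75 in cultures 3, 4 and 6 at 1% O2, against 7.43, 8.12 and 7.53 at 21% O2, and the groups did not overlap. All 9 measured microglia markers, of 10 listed, lay above the median gene, and their mean log2 intensity was 10.86, 10.87 and 10.79 at 1% O2 and 10.91, 10.92 and 10.94 at 21% O2. Of 11 measured fibroblast and pericyte markers, 8 also lay above the median gene. Array medians lay between 5.84 and 5.92. Of the 42 collagen genes, 35 had a mean intensity above the median gene (6.50) and 7 below it. In bulk RNA, fewer cells of a type and less RNA per cell cannot be told apart.

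The spread and the change were kept apart for each gene: the spread of the 3 cultures at 21% O2 and the change at 1% O2 within each culture. All 42 collagen genes had a mean change above 0, from 0.04 (Col10a1) to 0.71 (Col12a1) on the log2 scale with a median of 0.12, whereas 59.7% of all genes were above 0 and their median was 0.03. A mean change above 0 was not particular to collagens. It was also seen in 8 of 8 endothelial, 6 of 6 astrocyte, 7 of 7 oligodendrocyte and 5 of 6 neuron markers. The medians of these lists were 0.06, 0.11, 0.06 and 0.07. Of 9 microglia markers, 3 had a mean change above 0. The median change of the family was 0.02 in culture 3, 0.14 in culture 4 and 0.24 in culture 6, and over all genes it was -0.01, 0.04 and 0.06. The change was below 0 for 14 collagen genes in culture 3, for 1 in culture 4 and for 0 in culture 6. A total of 27 of 42 were higher at 1% O2 in all 3 cultures, and 24.8% of all genes were. In 13 genes the SD over the 3 cultures at 21% O2 was larger than the mean change, and in 29 it was not.

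**Figure D1:**
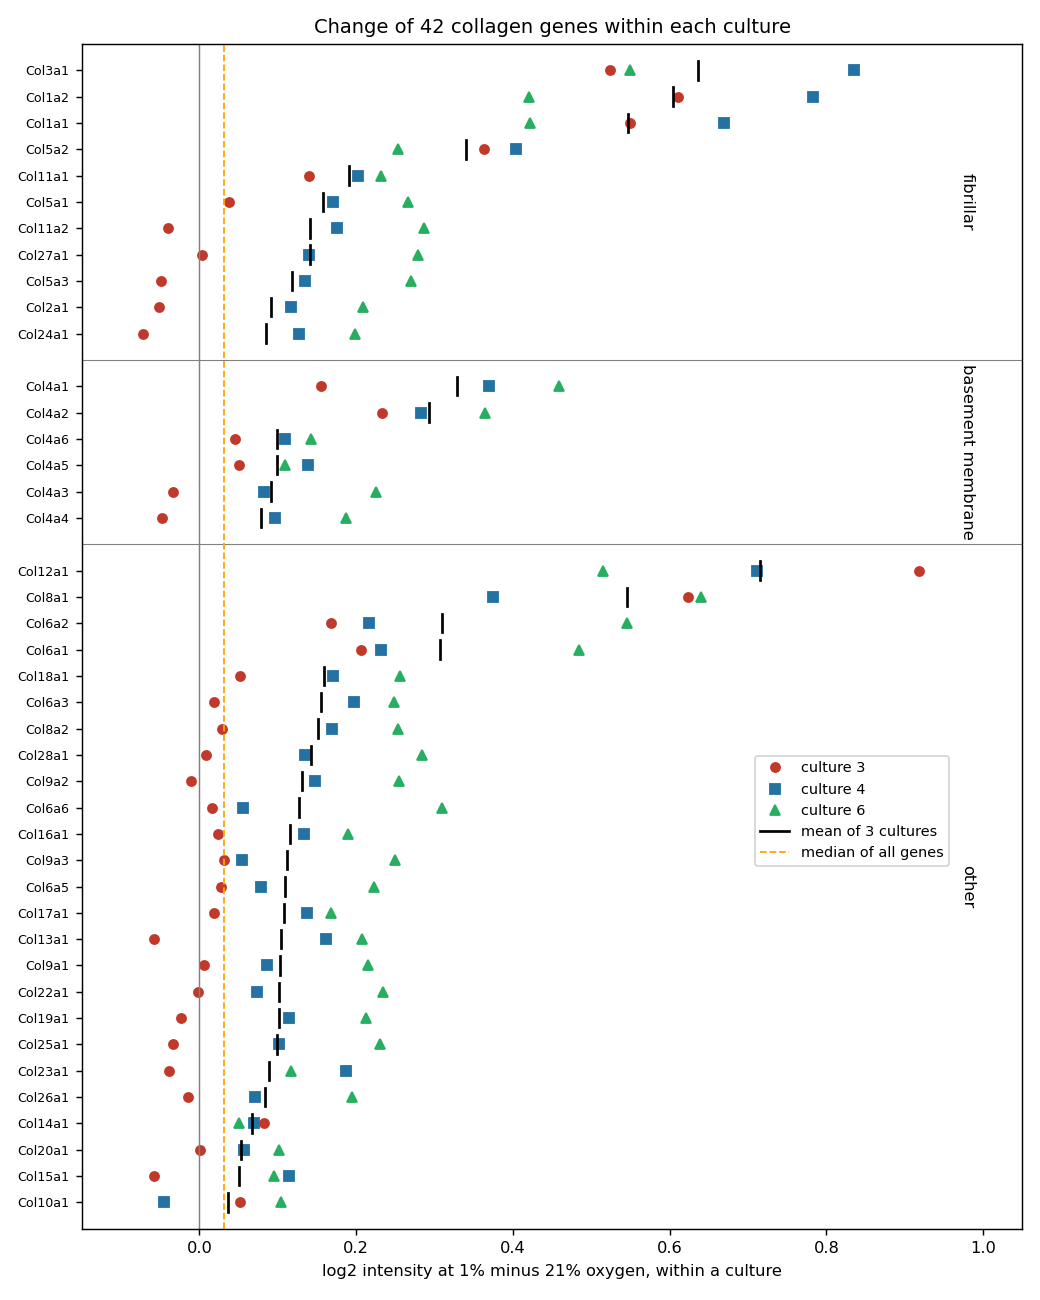
Log2 intensity at 1% O2 minus that at 21% O2 within each culture (x axis) for the 42 collagen genes (y axis, by class). Symbols are the 3 cultures, black bars their mean, and the dashed line the median of all genes (0.03). All 42 means lie above 0, and Col12a1 lies farthest out (0.71).

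Whether single collagen genes passed a test turned on how the cultures were handled. In limma without the culture in the fit, 0 of 42 passed an adjusted p of 0.05 in the higher direction and 0 in the lower, where the share over all genes was 0.209% and 0.0166%. The adjusted p ranged from 0.38 to 0.87 over the family. At an unadjusted p under 0.05, 2 of 42 were higher (Col11a1 and Col6a2) and 0 lower, with 4.28% of all genes higher. When the culture was a block, so that each pair of arrays was compared within its culture, 3 of 42 rose (Col12a1, Col3a1 and Col1a1) with a background of 0.421%, and 0 fell, with a background of 0.116%. Unadjusted, 11 of 42 were higher with the block, and 7.68% of all genes were. The 3 calls were not held by every scaling: with each array centred on its median 0 were called, with cyclic loess 1 (Col1a1), and without culture 3 also 0. The genes called higher among all 30176 also fell in number, to 80, 106 and 17 in these settings, against 127. The changes without culture 3 were 0.61 for Col12a1, 0.55 for Col1a1 and 0.69 for Col3a1, and under median centring they were 0.69, 0.52 and 0.61.

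The spread between cultures was tested on its own, by an F test of culture in the same fit. It called 7 collagen genes, with 1.13% of all genes called. They were the fibrillar genes Col1a1, Col1a2, Col3a1 and Col5a2, the type IV gene Col4a2, the network gene Col8a1 and the fibril-associated gene Col12a1. All 7 were highest in culture 3 at both oxygen levels, by a median of 1.24 over the mean of cultures 4 and 6 at 1% O2 and 1.34 at 21% O2. In total 10 of 42 collagen genes were highest in culture 3 at both levels and 23 lowest, and over all genes these shares were 12.9% and 27.9%. The F test called 0 collagen genes, and 0 of all genes, when both arrays of culture 3 or either of them were left out, and 8 when culture 4 or culture 6 was, where the count over all genes was 457 and 744, against 340 with all arrays.

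**Figure D2:**
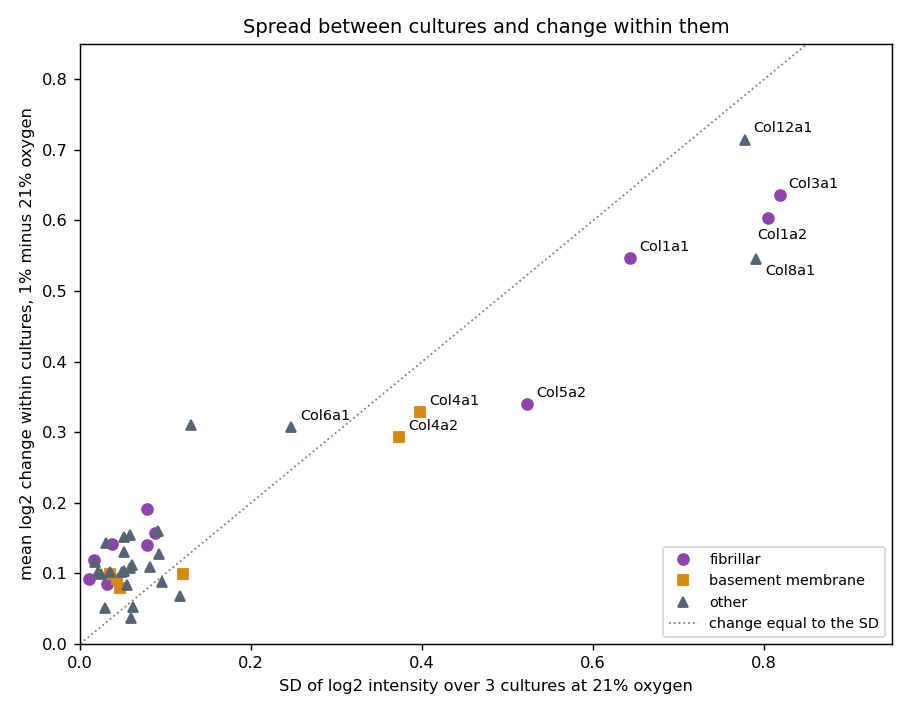
SD of log2 intensity over the 3 cultures at 21% O2 (x axis) against the mean change at 1% O2 within cultures (y axis), 1 point per collagen gene, marked by class. Points right of the dotted line, 13 of 42, have a spread larger than their change, and the 7 genes called between cultures are among them. That test used the same arrays, so a large spread in these 7 follows in part from how they were chosen.

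Among the fibrillar genes the type I and III chains had the largest spread and the largest change, and the type V gene Col5a2 came next in both. Col1a1 encodes the alpha 1 chain of type I collagen and lies at chr11:94936224-94953042 (GRCm38). Its log2 intensity was 9.86, 8.80 and 8.71 in cultures 3, 4 and 6 at 1% O2, against 9.31, 8.13 and 8.29 at 21% O2. The mean was 9.13 ± 0.64 at 1% O2 and 8.58 ± 0.64 at 21% O2 (SD, n = 3 each), so the groups overlapped, yet each culture was higher at 1% O2, by 0.55, 0.67 and 0.42. The change of 0.55, or 1.46-fold, had an SE of 0.07 and an adjusted p of 0.046 with the block, against an SE of 0.38 and an adjusted p of 0.64 without it. Between cultures its adjusted p was 0.0062.

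Col3a1 encodes type III collagen, which forms thin fibrils with type I, and lies at chr1:45311538-45349706. It had 9.38, 8.21 and 8.06 at 1% O2, against 8.86, 7.38 and 7.51 at 21% O2. Its change of 0.64, or 1.55-fold, was present in each culture (0.52, 0.83 and 0.55), with an adjusted p of 0.045 with the block and 0.65 without it. Culture 3 at 21% O2 lay above cultures 4 and 6 at 1% O2. That order also held for Col1a1.

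Col1a2, the partner chain of Col1a1, lies at chr6:4505618-4541543 and had 9.44, 8.14 and 7.96 at 1% O2, against 8.83, 7.36 and 7.54 at 21% O2. The changes of 0.61, 0.78 and 0.42 averaged 0.60, and the adjusted p was 0.052 with the block and 0.68 without it. It missed the threshold that its partner passed, and the difference between them was not tested. Col5a2, a type V chain found within type I fibrils, had 8.28, 7.37 and 7.32 at 1% O2, against 7.92, 6.97 and 7.07 at 21% O2. Its changes of 0.36, 0.40 and 0.25 did not pass with the block (adjusted p = 0.099).

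**Figure D3:**
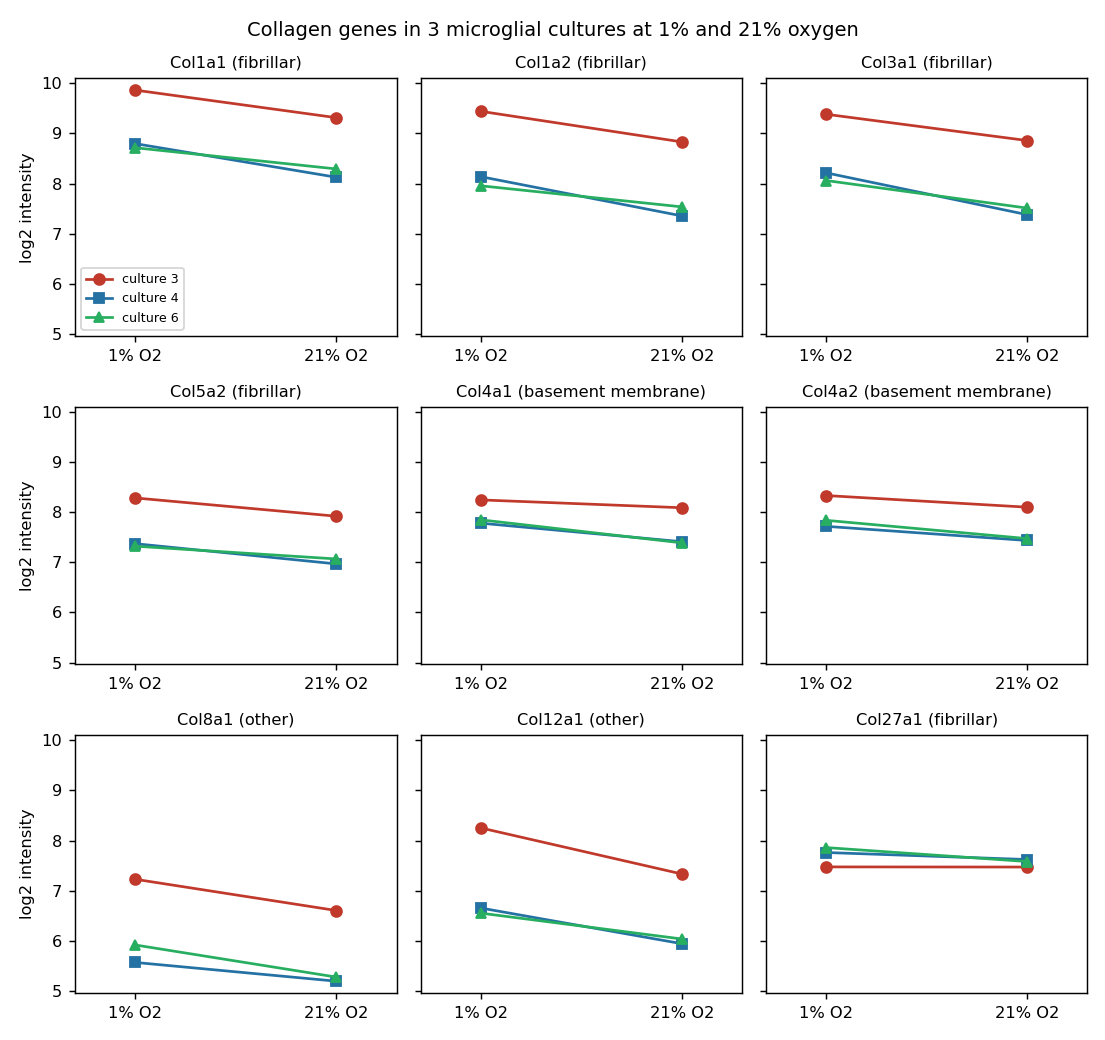
Log2 intensity (y axis) of 9 collagen genes in each array at 1% and 21% O2 (x axis), with lines joining the 2 arrays of a culture. In Col1a1, Col1a2, Col3a1, Col5a2, Col8a1 and Col12a1 culture 3 lies above the other cultures at both oxygen levels. It also does in Col4a1 and Col4a2, by less, while Col27a1 has cultures close together.

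The other 7 fibrillar genes were closer together. Their changes lay between 0.08 and 0.19 and their SD at 21% O2 between 0.01 and 0.09. Col11a1, a chain of the minor fibrillar type XI, had 6.74, 6.67 and 6.69 at 1% O2, against 6.60, 6.47 and 6.46 at 21% O2, without overlap. Its adjusted p was 0.44 without the block and 0.22 with it. Col27a1 had 7.47, 7.76 and 7.86 at 1% O2, against 7.47, 7.62 and 7.58 at 21% O2, so that culture 3 hardly differed between conditions. Of all 11 fibrillar genes, 7 were higher in all 3 cultures and the median change was 0.16.

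Upstream sequence was read from RefSeq promoter windows (GRCm38.p6), which matched 33 of the 42 genes. The 250 bases before the start were searched on both strands for the core of the hypoxia-inducible factor element, ACGTG or GCGTG, which 11 of 33 collagen genes and 41.5% of 27025 genes held. CCAAT, bound by the factor NF-Y, was held by 11 of 33 and by 37.5%, and TATAAA by 5 of 33 and by 14.3%. A match of letters is a description only. The sequences of Col1a2, Col3a1 and Col8a1 are given because all 3 genes were called between cultures, had changes between 0.55 and 0.64, and hold different letters. They run 5′ to 3′ in the direction of the gene, from chr6:4505368-4505617 (plus strand), chr1:45311288-45311537 (plus strand) and chr16:57754738-57754987 (minus strand), and capitals mark a hypoxia-inducible factor core or CCAAT.
Col1a2: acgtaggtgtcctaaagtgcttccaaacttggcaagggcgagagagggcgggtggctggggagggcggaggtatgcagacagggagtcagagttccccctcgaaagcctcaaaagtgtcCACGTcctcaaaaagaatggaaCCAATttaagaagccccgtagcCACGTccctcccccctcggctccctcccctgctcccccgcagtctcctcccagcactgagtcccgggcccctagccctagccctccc
Col3a1: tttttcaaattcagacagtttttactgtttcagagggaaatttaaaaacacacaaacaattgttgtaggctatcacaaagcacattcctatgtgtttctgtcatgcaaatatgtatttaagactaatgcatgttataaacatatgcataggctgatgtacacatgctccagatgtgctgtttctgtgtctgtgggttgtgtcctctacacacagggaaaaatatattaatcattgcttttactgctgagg
Col8a1: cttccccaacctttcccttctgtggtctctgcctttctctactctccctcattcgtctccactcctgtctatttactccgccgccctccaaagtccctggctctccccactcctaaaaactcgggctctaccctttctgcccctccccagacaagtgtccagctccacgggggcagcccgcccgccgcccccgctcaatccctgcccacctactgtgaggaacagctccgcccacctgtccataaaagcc
Col1a2 held the core, read as CACGT, beginning at positions -131 and -87 from its start, and CCAAT at -109. Col3a1 held neither of these and TATAAA at -117, and Col8a1 held none of the 3 motifs.

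Among the type IV genes, Col4a1 and Col4a2, which encode the chains of the common basement membrane network, stood apart from the other 4. They lie head to head at chr8:11198423-11312889 and chr8:11312805-11449287, and their promoter windows overlap by 78 bases. Col4a1 had 8.24, 7.78 and 7.85 at 1% O2, against 8.09, 7.41 and 7.39 at 21% O2, and changes of 0.16, 0.37 and 0.46. Col4a2 had 8.33, 7.72 and 7.84 at 1% O2, against 8.10, 7.43 and 7.47 at 21% O2, and changes of 0.23, 0.28 and 0.36. In both genes culture 3 was highest and each culture was higher at 1% O2. Neither passed for oxygen, with adjusted p of 0.14 and 0.12 with the block, and between cultures the adjusted p was 0.080 for Col4a1 and 0.032 for Col4a2.

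The other 4 type IV genes, Col4a3 to Col4a6, encode chains of more restricted basement membranes. Their changes lay between 0.08 and 0.10 and their SD at 21% O2 between 0.03 and 0.12. Col4a3 had 6.70, 6.90 and 7.03 at 1% O2, against 6.74, 6.82 and 6.80 at 21% O2. Col4a4 had 6.74, 6.94 and 7.06 at 1% O2, against 6.79, 6.85 and 6.88 at 21% O2. In both, culture 3 was slightly lower at 1% O2 and the other cultures higher.

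In the remaining collagens, Col12a1 had the largest mean change of the family. It encodes a fibril-associated collagen and lies at chr9:79598987-79721141. It had 8.25, 6.66 and 6.55 at 1% O2, against 7.33, 5.94 and 6.04 at 21% O2. The groups overlapped, because culture 3 at 21% O2 lay above cultures 4 and 6 at 1% O2, and the changes within cultures were 0.92, 0.71 and 0.51. The mean change of 0.71, or 1.64-fold, had an SE of 0.09 and an adjusted p of 0.040 with the block, against 0.65 without it, beside an SD of 0.78 over the cultures at 21% O2.

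Col8a1, a chain of the short network collagen type VIII, lies on chromosome 16 and had 7.23, 5.57 and 5.92 at 1% O2, against 6.61, 5.20 and 5.28 at 21% O2. Its changes of 0.62, 0.37 and 0.64 averaged 0.55, with an adjusted p of 0.054 with the block, and between cultures its adjusted p was 0.0040. It was 1 of the 7 collagen genes below the median gene in mean intensity.

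The type VI genes encode beaded filaments found around many cells, and among them Col6a1 and Col6a2 had larger changes than any collagen gene outside the 7 genes and Col4a1. Col6a1 had 7.77, 7.42 and 7.59 at 1% O2, against 7.57, 7.18 and 7.11 at 21% O2, with 1 overlapping pair. Col6a2 had 7.39, 7.34 and 7.51 at 1% O2, against 7.22, 7.12 and 6.97 at 21% O2, without overlap. The changes were 0.31 for both, and in both the change was largest in culture 6. The adjusted p was 0.16 for Col6a1 and 0.19 for Col6a2 with the block, and 0.50 and 0.38 without it. Every array at 1% O2 lay above every array at 21% O2 in 5 collagen genes (Col5a1, Col6a2, Col6a3, Col11a1 and Col18a1), with a share of 8.24% over all genes.

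The 21 other genes of this class had changes between 0.04 and 0.16 and an SD at 21% O2 between 0.02 and 0.12. Col18a1, whose chain holds the endostatin fragment at its end, had 7.59, 7.67 and 7.62 at 1% O2, against 7.54, 7.50 and 7.37 at 21% O2. Col13a1 and Col23a1, transmembrane collagens, had changes of -0.06, 0.16 and 0.21 and of -0.04, 0.19 and 0.12 in cultures 3, 4 and 6. Col9a2, a fibril-associated chain of cartilage, had -0.01, 0.15 and 0.25.

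Set side by side, the 7 genes called between cultures had median changes of 0.55, 0.67 and 0.42 in cultures 3, 4 and 6, and the other 35 had 0.01, 0.13 and 0.23. The 7 averaged 8.68, 7.50 and 7.48 at 1% O2, against 8.14, 6.92 and 7.03 at 21% O2, and all were lower in cultures 4 and 6 than in culture 3. The 35 averaged 6.92, 7.06 and 7.13 at 1% O2, against 6.91, 6.93 and 6.90 at 21% O2. Their small changes thus came mostly from cultures 4 and 6, and 20 of the 35 were higher in all 3 cultures.

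Markers of other cell types were read in the same arrays. The fibroblast and pericyte markers, without collagens, averaged 7.94, 7.30 and 7.26 in cultures 3, 4 and 6 at 1% O2, against 7.79, 6.80 and 6.93 at 21% O2. Of the 11, 7 were highest in culture 3 at both levels, with 12.9% of all genes. In contrast 2 (Rgs5 and Mylk) were lowest there, with 27.9% of all genes, and Cspg4 and Twist1 were neither. Between cultures 5 were called (Acta2, Dcn, Lum, Pdgfrb and Tagln), with 1.13% of all genes called. A total of 10 were higher at 1% O2 in all 3 cultures, with 24.8% of all genes. For oxygen 0 were called, with 0.209% of all genes called higher without the block and 0.421% with it. The median change of the 11 was 0.31. Dcn, a proteoglycan gene that marks fibroblasts, had 10.16, 8.45 and 8.62 at 1% O2, against 10.12, 7.77 and 8.11 at 21% O2. The change in culture 3 was 0.04 for Dcn and -0.33 for Lum, and it was 0.65 for Acta2, 0.47 for Tagln and 0.30 for Pdgfrb. The microglia markers had a median change of -0.08 with 0 called between cultures, and 1 of 6 astrocyte markers (Gfap), 1 of 8 endothelial markers (Cdh5), 0 of 7 oligodendrocyte markers and 0 of 6 neuron markers were called between cultures. Gfap and Cdh5 were highest in culture 3, by 0.97 and 1.32 over the mean of cultures 4 and 6 at 1% O2. At 21% O2 they were so by 0.80 and 1.81. Of 6 astrocyte markers 3 were highest in culture 3 at both levels and 0 lowest. Of 8 endothelial markers these counts were 1 and 3, with 12.9% and 27.9% of all genes. The part of all these markers in the collagen result was not tested.

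**Figure D4:**
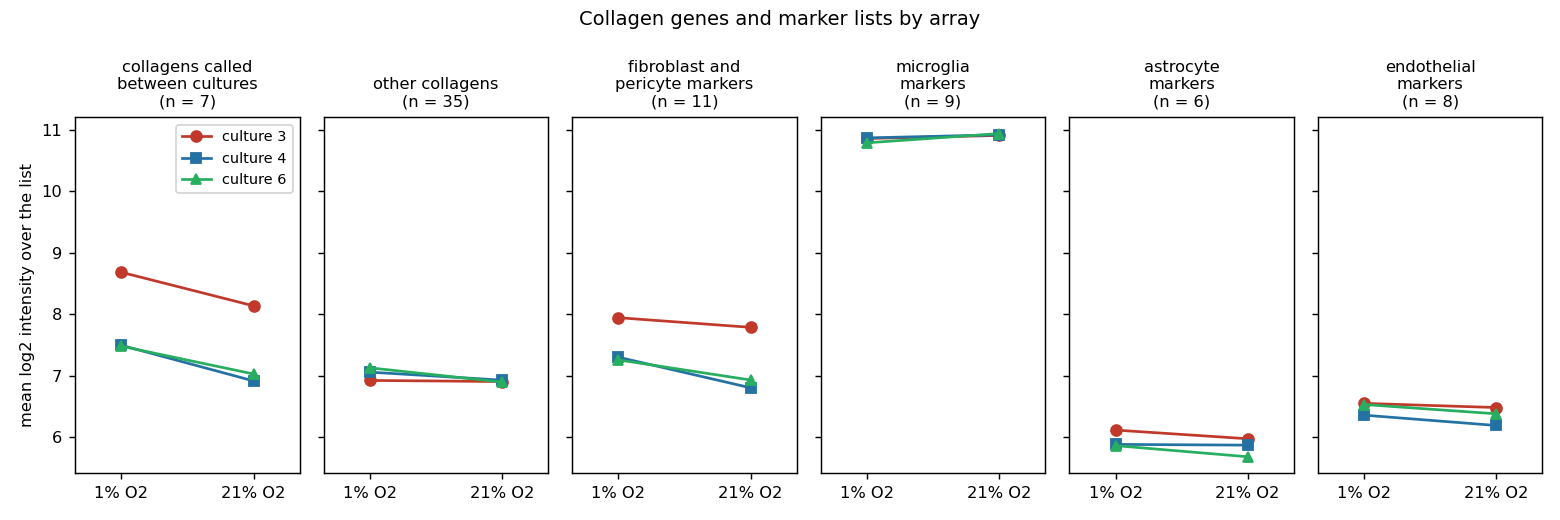
Mean log2 intensity (y axis) in each array at 1% and 21% O2 (x axis) over the 7 collagen genes called between cultures, the other 35, and 4 lists of cell type markers, with lines joining the arrays of a culture. The mean in culture 3 lies highest at both levels for the 7 collagen genes and for the fibroblast and pericyte, astrocyte and endothelial markers. Of 8 endothelial markers, however, 1 was highest in culture 3 at both levels and 3 were lowest. Their median of culture 3 minus the mean of cultures 4 and 6 was -0.02 at 1% O2 and -0.03 at 21% O2. Of 6 astrocyte markers 3 were highest there and 0 lowest, and Gfap alone was called between cultures. The microglia markers lie between 10.79 and 10.94 in all arrays.

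Of the genes that make collagen, 25 of 29 listed were measured, with a median change of 0.18. With the block 4 rose (P4ha1, P4ha2, Plod2 and Loxl1), with 0.421% of all genes, and without it P4ha2 alone, with 0.209%. Between cultures 4 were called (Bmp1, Lox, Loxl1 and Plod2), with 1.13% of all genes, so Loxl1 and Plod2 passed both tests. Culture 3 was highest at both levels in 7 of the 25 and lowest in 6, with 12.9% and 27.9% of all genes. Bmp1 was lowest in culture 4 at both levels (8.28 at 1% O2 and 8.08 at 21% O2). P4ha2 encodes a prolyl 4-hydroxylase subunit. It had 7.44, 7.54 and 7.47 at 1% O2, against 6.77, 6.81 and 6.75 at 21% O2, a change of 0.71 that passed without the block (adjusted p = 0.0071). It was not called between cultures, with an SD of 0.03 at 21% O2 where Col1a1 had 0.64. Plod2, a lysyl hydroxylase gene, had 8.88, 8.65 and 7.79 at 1% O2, against 7.70, 7.16 and 6.54 at 21% O2, and passed with the block only (adjusted p = 0.0034 with it and 0.35 without it).

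The genes for partners of fibrils had a median change of 0.41 over the 9 measured of 10 listed. Of these, 8 were called between cultures, where 1.13% of all genes were, and 2 rose with the block (Thbs2 and Tnc), where 0.421% did. Culture 3 was highest at both levels in 7 of the 9 and lowest in 1 (Postn), beside 12.9% and 27.9% of all genes. In Fn1, cultures 3 and 4 lay close (11.44 and 11.39 at 1% O2) and culture 6 was lower (10.30). Partners of the basement membrane had a median change of 0.26, with all 11 higher in all 3 cultures, 4 called between cultures and 1 that rose with the block (Nid1), beside 24.8%, 1.13% and 0.421% of all genes. Dcn and Lum stand both on the fibril partner list and on the fibroblast list.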

How the data were processed

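The values deposited by the authors are log2 intensities after RMA, a method that subtracts background, quantile-normalizes the arrays and combines the probes of each feature. This can shrink a change shared by many genes. Expression Console (Affymetrix), limma and the mm10 build, GRCm38, appear beside RMA in the submitters' processing notes, without versions. Per the labels, RNA was extracted with TRIZOL and labelled with a WT Terminal Labeling kit. Background values were not used here, and precision is limited by how many arrays there are.

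Of 72688 features, 30638 had 1 symbol and 2176 several. The brightest feature of each symbol was kept. The members and lists were chosen with earlier results of these data known. Collagen genes were named with values where they passed either oxygen test, were among the 4 brightest of their class, among the 3 largest changes in either direction (0 were negative) or among the 8 smallest p-values between cultures. Col6a1, Col6a2, Col11a1 and the genes named beside counts of 5 or fewer were added after values were seen.

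Hypoxia minus normoxia was tested in limma 3.58.1 (R 4.3.3), with Benjamini-Hochberg adjustment over all 30176 genes. All adjusted p-values come from limma. The fit had no block, and the culture as a block was the alternative, because the labels give both arrays of a culture the same number. After subtraction of group means, both arrays of a culture correlated at 0.22 to 0.57, against -0.50 to 0.14 for arrays of different cultures. The subtraction makes the 3 deviations of a group sum to 0 for each gene. Positive values within cultures therefore pull those between cultures down, and the contrast is partly built in. An exact permutation over 3 arrays against 3 cannot go below 0.10, and sign flips over 3 cultures not below 0.25. Alternatives were cyclic loess, median centring, array weights, a filter on dim genes, an intensity trend, the mean of all features of a gene, and leaving out each array or culture. The fit was tested on simulated data.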

Additional observations from a re-analysis of the deposited data

How the results depend on the processing

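The count of collagen genes higher at 1% O2 was 0 without the block and 3 with the culture as a replicate block. It was 0 under each other alternative without the block. With the block, the count of 3 became 1 under cyclic loess, 0 under median centring, 4 with dim genes left out, and 5 both with array weights and with an intensity trend, combinations chosen after seeing the data. Over all genes, those called higher with the block numbered 127, and 106, 80, 193 (of 15088 tested), 249 and 214 in these settings. The collagen count ranged from 0 to 4 as each culture was left out with the block, and it was 0 without culture 3. Over all genes, 17 were called higher without culture 3, 135 without culture 4 and 121 without culture 6. Median centring gave adjusted p of 0.061 for Col12a1, 0.067 for Col1a1 and 0.061 for Col3a1. The cause of these differences was not tested. The count of collagen genes lower at 1% O2 was 0 in every setting run. The count called between cultures was 7, between 6 and 8 under other scalings and filters, and from 0 to 8 as single arrays or cultures were left out, with 0 whenever an array of culture 3 was missing. Over all genes 340 were called, and from 316 to 469 under other scalings and filters (340 of 15088 without dim genes). The number over all genes was also 0 whenever an array of culture 3 was missing, and from 457 to 744 when other arrays or cultures were left out. The median change of the family lay between 0.06 and 0.18 over all settings. A mean change above 0 held for all measured collagen genes except 1 under cyclic loess, 1 with array weights without the block, 1 without the culture 4 array at 1% O2 and 2 without the culture 6 array at 1% O2. Without the block, leaving out single arrays unbalances the cultures, and the change of Col1a1 then ranged from 0.18 to 0.92. The hypoxia array of culture 3 had the lowest array weight (0.37) in the fit without the block. In that fit a difference between cultures can also lower a weight. The number of cultures (3) limits all of these values, and signal over background was not assessed.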

Other observations

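Some collagen receptor and breakdown genes differed between cultures. Of 10 measured receptors and uptake genes, 4 were called between cultures (Itga2, Ddr2, Mrc2 and Mrc1), with 1.13% of all genes called. For oxygen 0 of the 10 were called. Over all genes 0.209% were called higher and 0.0166% lower without the block, and 0.421% and 0.116% with it. Mrc1, the macrophage mannose receptor, had log2 intensities of 7.52, 8.80 and 8.27 in cultures 3, 4 and 6 at 1% O2, against 8.20, 9.09 and 8.55 at 21% O2, so culture 3 was lowest at both levels. Mrc2, a collagen uptake receptor, had 7.89, 7.25 and 7.29 at 1% O2, against 7.73, 6.92 and 6.97 at 21% O2, with culture 3 highest. Of 7 breakdown genes, 1 (Mmp2, a gelatinase gene) was called between cultures, with 8.85, 7.65 and 7.71 at 1% O2, against 8.57, 6.97 and 7.17 at 21% O2.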
